A study of Mus musculus with 12 samples.

Results

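Transcripts of 38 genes for glycolysis, the pentose phosphate pathway and the response to low oxygen were followed in RAW264.7 cells, a mouse macrophage line. The rule was a list of gene names. Of 39 names, 38 were rows of the deposited table of 12483 genes, and Egln3 was not analysed here. All 38 passed the filter on low counts, beside 12231 genes tested in all.

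RNA was sequenced from KO clones, which carry a CRISPR deletion of NRE1, and from WT clones. The 4 groups were KO clones given LPS at 10 ng/mL and IFN-gamma at 50 ng/mL for 6 h, KO clones in medium, WT clones given the same LPS and IFN-gamma, and WT clones in medium. Each group held 3 libraries, 1 from each of KO clones 1A, 1B and 2 or of WT clones 1, 2 and 3. LPS is a bacterial cell wall component and IFN-gamma a lymphocyte cytokine, and together they drive macrophages to an inflammatory state. Per the labels' protocols, guide constructs on either side of NRE1 were introduced, cells with GFP and puromycin resistance were selected, and each culture was raised from 1 cell. The labels give this protocol for WT and KO clones alike. They leave NRE1 unexplained and no row of the table carries the name, so the deletion could not be read in the counts. The relation of clones 1A and 1B is not stated. Counts of 1A and 1B differed with a chi-square per degree of freedom of 4.52 under LPS/IFN-gamma and 6.43 in medium, against 24.0 to 74.0 for every other pair of clones of a group. If these stem from 1 clone, the KO groups hold fewer independent clones than libraries, and p-values measure the spread between these cultures.

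Total counts per library ran from 10624591 to 14388590. All 10 macrophage markers looked for were in the table. Their summed level was 5399 to 11409 CPM (read counts after TMM scaling to equal depth) in KO clones under LPS/IFN-gamma and 4669 to 14268 CPM in KO clones in medium. It was 8971 to 18549 CPM in WT clones under LPS/IFN-gamma and 8478 to 19174 CPM in WT clones in medium, and Mertk, 1 of the 10, stayed at or below 3.50 CPM in every library. Lyz2 alone ran from 1790 to 14964 CPM. No fibroblast or epithelial marker was in the table, and of each other cell type looked for 1 to 3 markers were.

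Some markers of other cell types moved with stimulation. Lck, the 1 T or NK cell marker of 5 in the table, had 14.8 to 25.4 CPM in KO clones under LPS/IFN-gamma, against 3.72 to 4.77 CPM in medium, and 7.91 to 22.8 CPM in WT clones under LPS/IFN-gamma, against 1.72 to 4.67 CPM in medium. The 3 dendritic cell markers of 5 in the table summed to 9.74 to 12.4 CPM in KO clones under LPS/IFN-gamma, against 1.125 to 2.16 CPM in medium, and to 14.3 to 36.6 CPM in WT clones under LPS/IFN-gamma, against 1.30 to 2.19 CPM in medium. Most of that sum under stimulation was Xcr1, and Flt3 and Ccr7 were not analysed here. Blnk, the 1 B cell marker of 5 in the table, had 23.2 CPM under LPS/IFN-gamma and 37.1 CPM in medium in WT clone 2, against at most 10.5 CPM in any other library. S100a8 and Kit, of neutrophils and mast cells, stayed at or below 3.38 CPM. The part of these differences in the results was not tested.

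Glycolysis splits glucose into pyruvate in the cytosol, and lactate dehydrogenase turns pyruvate into lactate, which leaves the cell. The pentose phosphate pathway branches off at glucose 6-phosphate and yields NADPH and ribose 5-phosphate. HIF-1 is a transcription factor whose alpha subunit, Hif1a, is hydroxylated by the Egln enzymes when oxygen is present and then marked for degradation by Vhl. HIF-1 binds a short core, of which ACGTG is a form, and many genes of glycolysis are among its known targets. Macrophages given LPS are known for raised glucose uptake and lactate release.

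The letters ACGTG were searched in windows from 250 bases before to 50 bases after each start in RefSeq (build GRCm38.p6), on either strand. Windows were found for 36 of the 38 genes. Ndrg1 and Bnip3l had none, and Ero1l was matched to its RefSeq name, Ero1a. Of the 52 windows, 26 (50%) held ACGTG or its reverse complement CACGT, against 19.6% of all 32851 windows and 26% of the 11491 windows of tested genes. Counted by gene, 22 members had it. These were 13 of the 16 genes with a window that were higher under LPS/IFN-gamma in both genotypes, 2 of 3 that were lower in both (Pfkm and Mxi1), and 6 of 12 that were called in neither. Of the genes called in KO clones alone, 1 of 3 that were higher (Higd1a) and 0 of 2 that were lower had it. A share by gene over all tested genes was not computed, and genes with several windows can match more often. The list was chosen to hold hypoxia targets, and a link between the letters and the response was not tested. The 250 bases before the start are printed below for 7 members that differ in the search and in their response, 5′ to 3′ on the gene's strand, with ACGTG and CACGT in capitals. Hk2 (chr6:82774455-82774704, minus strand), Ldha (chr7:46845554-46845803, plus strand, the first of its 2 windows), P4ha1 (chr10:59323046-59323295, plus strand) and Pgk1 (chrX:106186850-106187099, plus strand) hold matches. Their transcripts were higher under LPS/IFN-gamma.

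Hk2: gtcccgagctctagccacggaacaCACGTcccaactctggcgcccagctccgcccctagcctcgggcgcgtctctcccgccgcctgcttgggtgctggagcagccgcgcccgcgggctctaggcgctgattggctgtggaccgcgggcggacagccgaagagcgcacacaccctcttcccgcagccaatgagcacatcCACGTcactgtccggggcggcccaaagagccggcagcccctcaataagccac

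Ldha: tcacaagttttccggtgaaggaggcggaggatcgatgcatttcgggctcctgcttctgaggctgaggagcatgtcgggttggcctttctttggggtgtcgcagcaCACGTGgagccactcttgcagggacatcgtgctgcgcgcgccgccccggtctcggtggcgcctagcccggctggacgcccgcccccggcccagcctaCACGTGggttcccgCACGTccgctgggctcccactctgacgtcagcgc

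P4ha1: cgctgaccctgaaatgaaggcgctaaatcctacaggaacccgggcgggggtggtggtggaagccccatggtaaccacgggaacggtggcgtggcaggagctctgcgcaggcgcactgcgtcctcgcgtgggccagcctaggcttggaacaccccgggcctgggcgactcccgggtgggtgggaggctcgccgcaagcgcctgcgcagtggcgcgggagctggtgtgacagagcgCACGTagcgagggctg

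Pgk1: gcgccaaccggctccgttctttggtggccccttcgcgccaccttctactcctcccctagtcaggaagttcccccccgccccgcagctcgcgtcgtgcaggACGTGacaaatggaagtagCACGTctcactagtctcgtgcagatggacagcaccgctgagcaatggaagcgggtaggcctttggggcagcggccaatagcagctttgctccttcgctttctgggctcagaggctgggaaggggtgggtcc

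The stretches printed for Pfkp (chr13:6648772-6649021, minus strand) and for the first of the 2 windows of Vegfa (chr17:46032378-46032627, minus strand) hold no match. Both transcripts were higher too. Vegfa is still counted above among the genes with a match, which lies elsewhere in its windows, and Pfkp is not. Pdk1 (chr2:71872974-71873223, plus strand, the first of its 2 windows) holds no match and its transcript was lower.

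Pfkp: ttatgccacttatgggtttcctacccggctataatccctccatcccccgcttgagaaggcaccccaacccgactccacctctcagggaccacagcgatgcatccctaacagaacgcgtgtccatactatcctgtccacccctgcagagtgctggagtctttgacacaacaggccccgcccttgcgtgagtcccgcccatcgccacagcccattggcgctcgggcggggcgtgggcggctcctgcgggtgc

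Vegfa: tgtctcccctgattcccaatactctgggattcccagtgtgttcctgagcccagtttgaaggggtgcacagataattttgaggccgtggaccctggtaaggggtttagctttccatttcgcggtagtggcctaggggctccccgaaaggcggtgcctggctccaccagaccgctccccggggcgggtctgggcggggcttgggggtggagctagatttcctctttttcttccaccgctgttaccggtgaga

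Pdk1: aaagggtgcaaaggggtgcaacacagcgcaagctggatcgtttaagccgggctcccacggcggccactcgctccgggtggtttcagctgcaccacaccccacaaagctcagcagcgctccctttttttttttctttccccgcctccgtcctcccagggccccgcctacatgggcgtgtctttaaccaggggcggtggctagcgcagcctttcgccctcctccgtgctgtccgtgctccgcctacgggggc

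A match is a description of letters in these windows and not a measured binding site. The search says nothing of sequence outside them. Other forms of the core, such as GCGTG, were not searched, and GCGTG stands in the printed stretches of P4ha1, Pfkp and Pdk1.

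Under LPS/IFN-gamma, transcripts of the glucose transporter Slc2a1, the lactate transporter Slc16a3 and many enzymes of glycolysis were higher than in medium in both genotypes. The largest rises of this set in KO clones were in the hypoxia targets Ndrg1 and Vegfa, the transporter Slc2a1 and the phosphofructokinase Pfkp, and in WT clones in Pfkp, Ndrg1, Slc2a1 and Bnip3. Pentose phosphate enzymes had a median change near 0. A few members were lower, among them Pfkm and Pdk1. In bulk RNA, fewer cells of a type and less RNA per cell cannot be told apart.

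In KO clones 20 of the 38 genes rose and 6 fell at an adjusted p below 0.05 (edgeR's quasi-likelihood test, Benjamini-Hochberg adjustment over all genes tested). Over all genes tested 26.7% rose and 27.6% fell, 54.3% in all. In WT clones 17 rose and 4 fell, against a background of 23.8% and 23.6%, 47.4% in all. The median log2 fold change of the 38 genes was 0.50 in KO clones and 0.28 in WT clones, and that of all genes tested was -0.01 in each. Scaling by library totals alone moved the median of all genes to -0.39 in KO clones and -0.37 in WT clones. With that scaling the counts became 14 higher and 12 lower in KO clones and 10 higher and 13 lower in WT clones, so a direction below is relative to most genes. Over all genes 14.7% were then higher and 45.1% lower in KO clones, and 13% higher and 42.8% lower in WT clones. Calls of a rise lost with it were those of Aldoa, Eno1, Ldha and Hif1a in both genotypes, of Pgd and Higd1a in KO clones, and of Hk2, Vegfa and Ero1l in WT clones. Calls of a fall gained with it were those of Pfkfb4, Slc16a1 and Rpia in both genotypes, of Hk1, Taldo1 and Egln1 in KO clones, and of Gpi1, Pdha1, G6pdx, Pgls, Pgd and Tkt in WT clones.

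The same 17 genes were called higher in both genotypes: Slc2a1, Hk2, Pfkp, Aldoa, Gapdh, Pgk1, Pgam1, Eno1, Ldha, Slc16a3, Hif1a, Vhl, Vegfa, Bnip3, P4ha1, Ero1l and Ndrg1. Pfkm, Pdk1, Bnip3l and Mxi1 were called lower in both. Pfkl, Pgd and Higd1a were called higher, and Pgls and Tkt lower, in KO clones and not in WT clones. The remaining 12 were called in neither. Without clone as a block, no member's response differed between genotypes in the test of that difference, given further on. With the block that test called Vegfa alone, at an adjusted p of 0.050 in edgeR, just under the threshold. With clone as a replicate block 21 members rose and 6 fell in KO clones, against 32.1% and 34.0% of all genes, and 17 rose and 6 fell in WT clones, against 29.8% and 31.4%. Ranges of CPM did not overlap between conditions, with the stimulated libraries above, for 24 members in KO clones and 15 in WT clones, against 34.1% and 25.2% of all genes. They lay below for 7 members in KO clones and 4 in WT clones, against 35.9% and 25.2% of all genes.

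**Figure D1:**
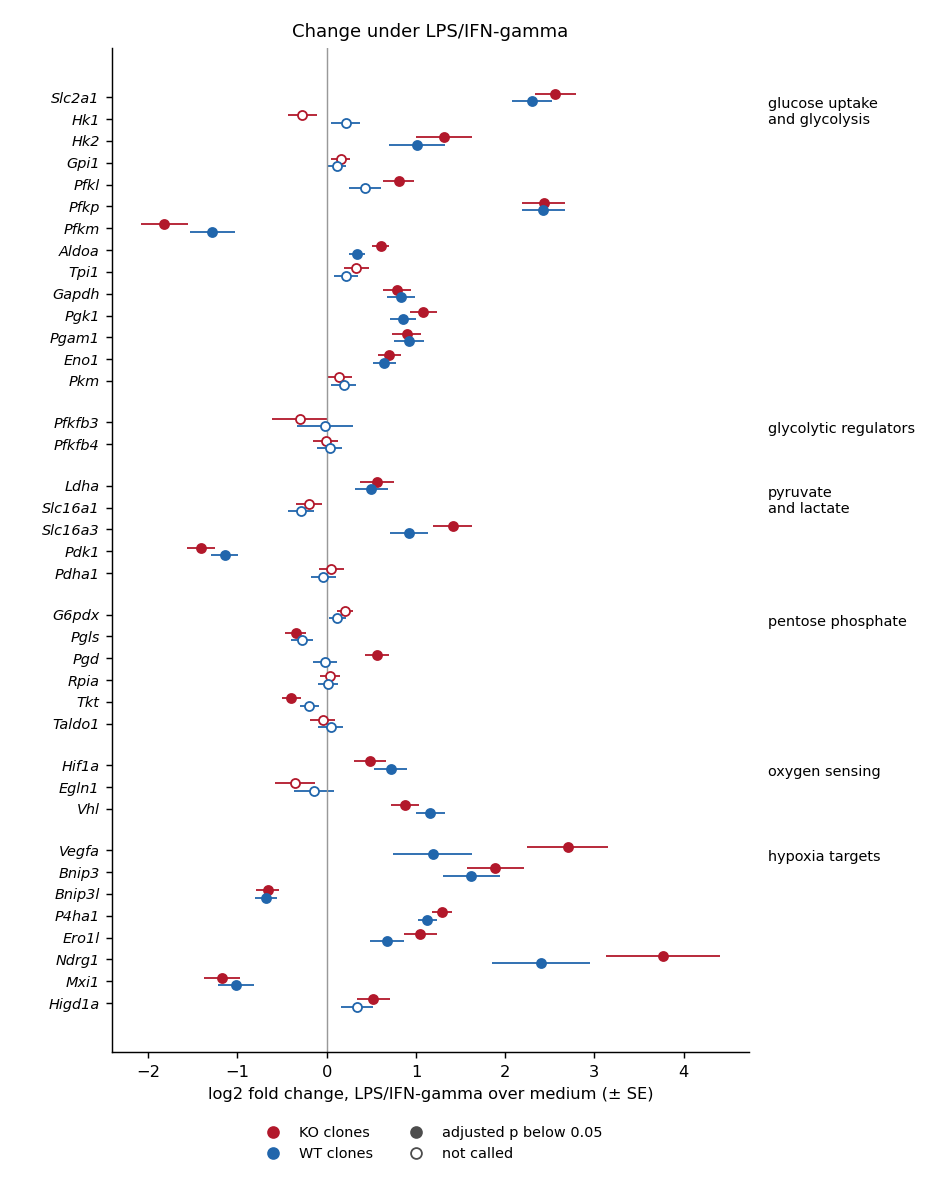
Log2 fold change under LPS/IFN-gamma against medium (x axis) for each of the 38 genes, ordered by role, in KO clones and in WT clones, with bars of 1 SE from edgeR and filled points for an adjusted p below 0.05. Slc2a1, Pfkp and Ndrg1 lie at 2.30 or more in both genotypes, Pfkm and Pdk1 lie farthest to the left, and the pentose phosphate enzymes lie within 0.56 of 0.

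Among 14 genes for glucose uptake and the enzymes of glycolysis, 9 rose and 1 fell in KO clones, against 26.7% and 27.6% of all genes. In WT clones 8 rose and 1 fell, against 23.8% and 23.6%. The medians of the 14 log2 fold changes were 0.75 in KO clones and 0.54 in WT clones. With library totals alone the counts were 7 and 2 in KO clones, against 14.7% and 45.1% of all genes. In WT clones they were 5 and 2, against 13% and 42.8%.

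Slc2a1 (chr4:119108711-119137983, plus strand) encodes GLUT1, the main glucose transporter of activated macrophages. It had 273, 229.9 and 362 CPM in KO clones 1A, 1B and 2 under LPS/IFN-gamma, against 48.1, 49.3 and 49.0 CPM in medium. In WT clones 1, 2 and 3 it had 416, 469 and 262 CPM under LPS/IFN-gamma, against 89.9, 73.0 and 70.3 CPM in medium. Every stimulated library lay above every unstimulated library. The log2 fold change was 2.56 ± 0.23 (SE) in KO clones (adjusted p = 8.3e-06, edgeR) and 2.30 ± 0.22 in WT clones (adjusted p = 2e-05, edgeR). Pfkp (chr13:6579768-6648777, minus strand) encodes the platelet-type phosphofructokinase, which catalyses the committed step of glycolysis. It had 849, 849 and 796 CPM in KO clones under LPS/IFN-gamma, against 166, 168 and 129 CPM in medium. WT clones had 688, 866 and 1359 CPM under LPS/IFN-gamma, against 183, 147 and 211 CPM in medium. Here too no library of either condition reached the range of the other. On the log2 scale Pfkp changed by 2.43 ± 0.24 in KO clones and also 2.43 ± 0.24 in WT clones (adjusted p of 1.6e-05 and 2.2e-05, edgeR).

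Hk2 encodes the inducible hexokinase, which traps glucose in the cell. Its log2 fold change was 1.31 ± 0.32 in KO clones (adjusted p = 0.0052, edgeR) and 1.01 ± 0.32 in WT clones (adjusted p = 0.022, edgeR). Its ranges overlapped in WT clones, where WT 1 had 125 CPM under LPS/IFN-gamma and WT 3 had 148 CPM in medium. Without WT 2, the WT call was lost (0.81, adjusted p = 0.15 in edgeR). Aldoa, the aldolase of most tissues, averaged 1973 ± 17.9 CPM in KO clones under LPS/IFN-gamma and 1297 ± 79.8 CPM in medium (SD, n = 3 each), with a log2 fold change of 0.61 ± 0.09. In WT clones its log2 fold change was 0.34 ± 0.09 and turned to -0.02 with library totals alone. Hk1, the constitutive hexokinase, and the enzymes Gpi1, Tpi1 and Pkm did not pass the test in either genotype, with log2 fold changes between -0.27 and 0.33 in KO clones and between 0.11 and 0.22 in WT clones. With clone as a replicate block Tpi1 was called higher in KO clones (adjusted p = 0.017 in edgeR).

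Gapdh, Pgk1, Pgam1 and Eno1, which act in the payoff phase of glycolysis, rose with log2 fold changes of 0.70 to 1.08 in KO clones and 0.65 to 0.92 in WT clones. Pgk1, the phosphoglycerate kinase, had 53.0, 45.9 and 58.0 CPM in KO clones under LPS/IFN-gamma, against 26.7, 19.7 and 27.7 CPM in medium. WT clones had 40.2, 47.2 and 46.2 CPM under LPS/IFN-gamma, against 24.6, 22.1 and 27.2 CPM in medium, and neither genotype showed an overlap between conditions. The levels of these 4 genes are uncertain. Per kilobase of the principal transcript, Gapdh stood at 24.0, Pgk1 at 13.5, Pgam1 at 10.5 and Eno1 at 58.0 CPM per kb in WT clones in medium, while Aldoa stood at 989.8 and Pkm at 1149.9 CPM per kb. Of the 50-base windows of the Gapdh transcript, 82.5% occurred in transcripts of other genes, 222 in number, of which 215 are annotated as pseudogenes. The share was 72.2% for Eno1, 68% for Pgk1 and 41.5% for Pgam1, and 62.4% for the hypoxia target Bnip3. No other member reached 40%. The part of shared sequence in these levels was not tested. All of these 5 genes were called higher in both genotypes, so leaving them out only takes them off the counts of rises. Without them, 15 members rose and 6 fell in KO clones, and 12 rose and 4 fell in WT clones.

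**Figure D2:**
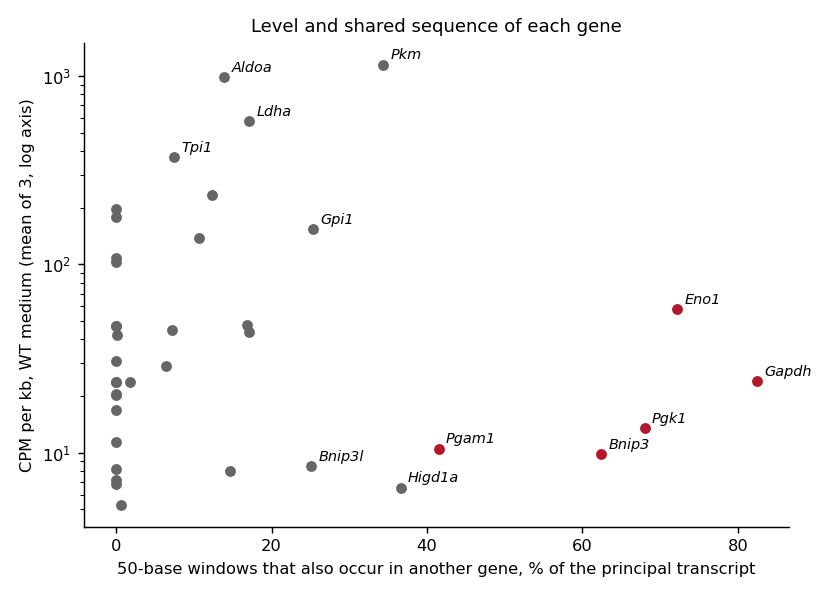
Share of 50-base windows of each member's principal transcript that occur in other genes (x axis, percent) against its mean level in WT clones in medium (y axis, CPM per kb, log scale), 1 point per gene. The 5 genes at 40% or more are in red, and Gapdh, Pgk1 and Pgam1 lie at 24.0 CPM per kb or lower.

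The phosphofructokinase isozymes did not move together. Pfkl, the liver-type isozyme, had a log2 fold change of 0.81 ± 0.18 in KO clones (adjusted p = 0.0026, edgeR) and 0.43 ± 0.18 in WT clones, where it missed the threshold (adjusted p = 0.065, edgeR). Pfkm, the muscle-type isozyme, fell to 6.45, 5.57 and 7.003 CPM in KO clones under LPS/IFN-gamma, against 22.0, 22.4 and 22.7 CPM in medium. In WT clones it fell to 14.6, 6.79 and 7.79 CPM under LPS/IFN-gamma, against 27.8, 19.8 and 23.4 CPM in medium. On the log2 scale the change was -1.82 ± 0.26 in KO clones and -1.28 ± 0.25 in WT clones (adjusted p of 0.00018 and 0.0018, edgeR). Counted per kilobase, the 3 isozymes together reached 285 ± 4.56 CPM per kb in KO clones under LPS/IFN-gamma and 92.1 ± 6.99 in medium. In WT clones they reached 294 ± 83.7 CPM per kb under LPS/IFN-gamma and 93.9 ± 16.3 in medium (SD, n = 3 each). Pfkp made up 71.7%, 73.0% and 66.3% of that sum in KO clones under LPS/IFN-gamma, against 41.7%, 42.1% and 37.0% in medium. In WT clones it made up 76.3%, 74.0% and 85.5% under LPS/IFN-gamma, against 45.8%, 46.4% and 46.9% in medium. The stimulated shares lay above all unstimulated ones. With all annotated exons as the length, the mean shares were 56.5% against 25.8% in KO clones and 66.6% against 30.5% in WT clones. Shares within a family were not tested.

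**Figure D3:**
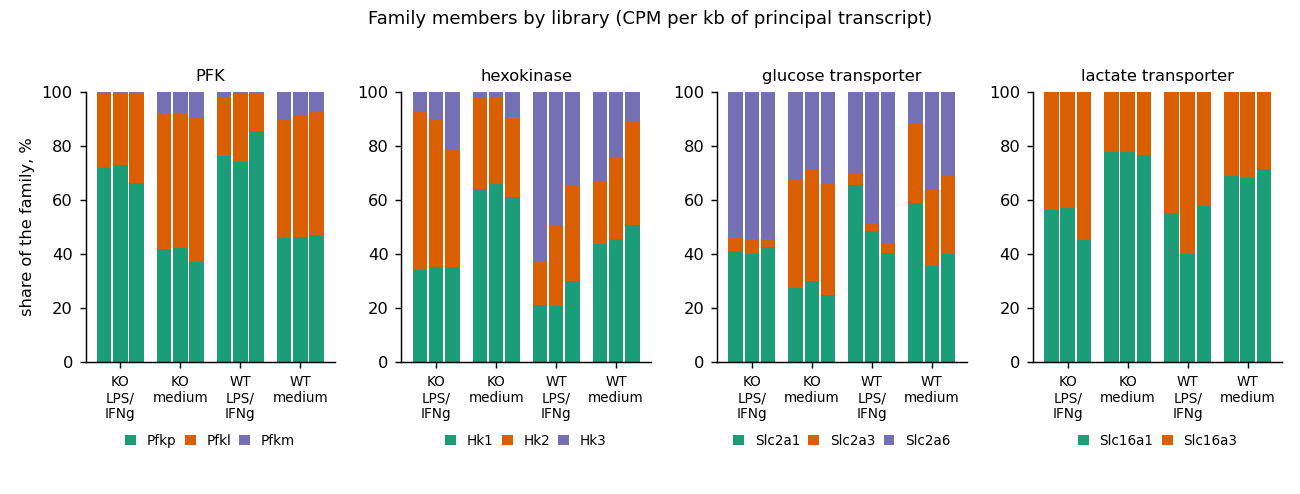
Share of each isozyme or transporter in the summed CPM per kb of its family (y axis, percent), 1 stacked bar per library, in KO and WT clones under LPS/IFN-gamma and in medium. Pfkp holds 66.3% to 85.5% of the phosphofructokinase sum in stimulated libraries and 37.0% to 46.9% in medium.

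Among the hexokinases, Hk3, a myeloid isozyme outside the 38 genes, held 12.7% ± 7.57 of the summed CPM per kb in KO clones under LPS/IFN-gamma and 49.0% ± 13.7 in WT clones under LPS/IFN-gamma. In medium it held 4.47% ± 4.17 in KO clones and 23.0% ± 11.4 in WT clones (SD, n = 3 each). Hk2 held 52.5% ± 8.01 in KO clones and 27.0% ± 9.67 in WT clones under LPS/IFN-gamma, and 31.8% ± 2.19 and 30.4% ± 7.90 in medium. Hk1 held 63.8% ± 2.27 in KO clones and 46.7% ± 3.54 in WT clones in medium. With all annotated exons as the length, the order of Hk1 and Hk2 in medium turned: Hk1 held 46.4% and Hk2 47.3% in KO clones, and Hk1 held 30.5% and Hk2 40.7% in WT clones. Of the glucose transporters counted per kilobase, Slc2a3 (GLUT3) fell with stimulation, with log2 fold changes of -1.26 ± 0.16 in KO clones and -1.05 ± 0.16 in WT clones. Slc2a6, a lysosomal transporter, rose by 2.73 ± 0.48 and 2.80 ± 0.48 on the log2 scale. These 2 transporters were taken for their family and lie outside the 38 genes. Among Slc2a1, Slc2a3 and Slc2a6, Slc2a3 held 2.89% to 5.50% of the sum in KO clones under LPS/IFN-gamma and 40.3% to 41.6% in medium. In WT clones it held 2.88% to 4.04% under LPS/IFN-gamma and 28.1% to 29.3% in medium.

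**Figure D4:**
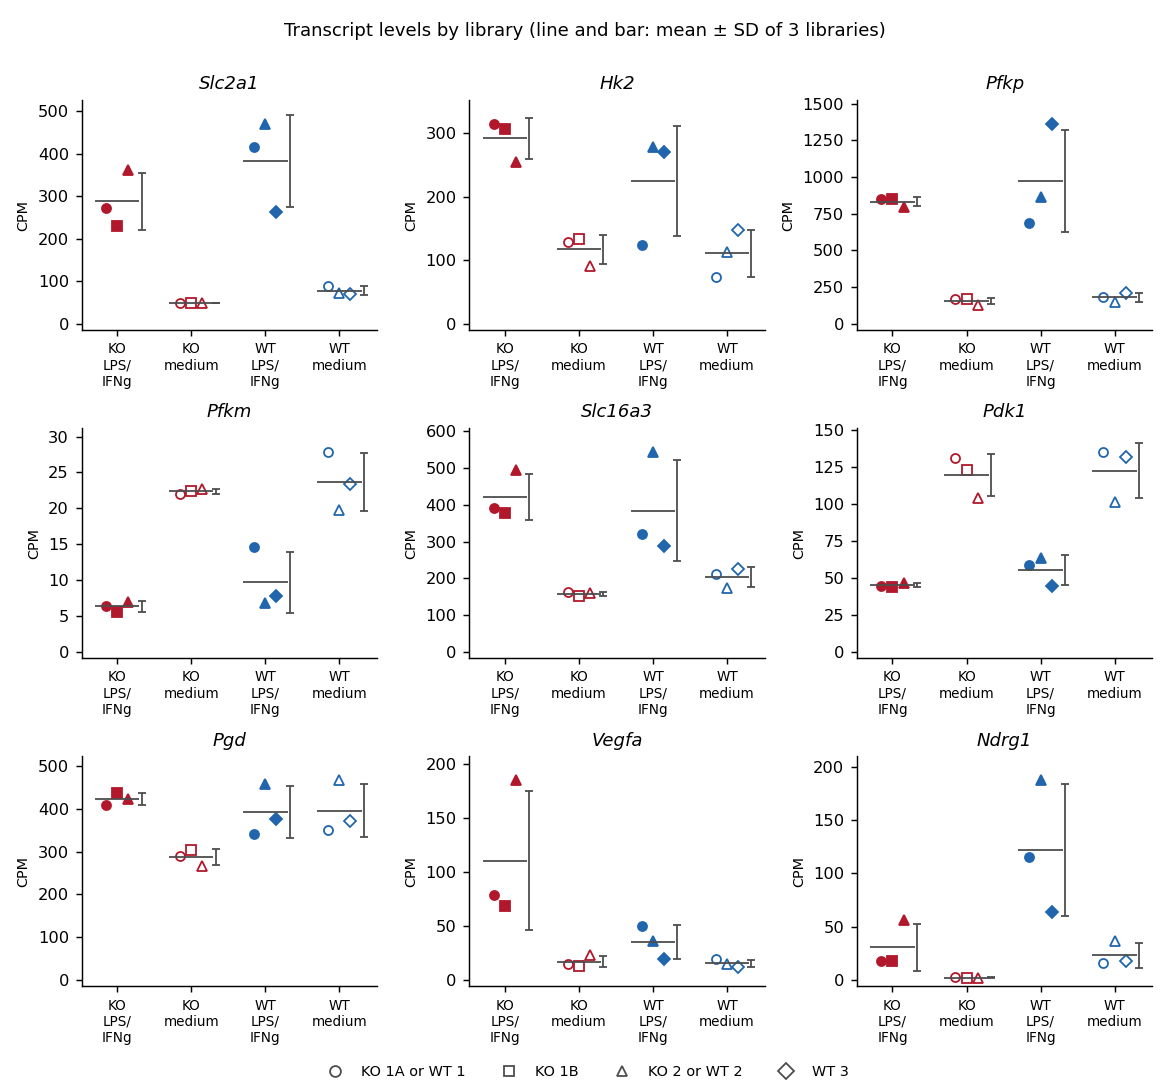
CPM of 9 members by library (y axis), with KO clones in red left of WT clones in blue, filled points for LPS/IFN-gamma and open points for medium, and a line and bar for the mean ± SD of 3 libraries. Slc2a1, Pfkp and Slc16a3 show filled points above the open ones in each genotype, Pfkm and Pdk1 show them below, and Ndrg1 shows KO clones below WT clones in both conditions.

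Pfkfb3 and Pfkfb4 make and break fructose 2,6-bisphosphate, the strongest known activator of phosphofructokinase. Neither passed the test for a response, though Pfkfb4 was called lower with library totals alone, by -0.39 in KO clones and -0.32 in WT clones on the log2 scale (adjusted p of 0.022 and 0.049, edgeR). Pfkfb3 had 12.8, 14.2 and 27.6 CPM in KO clones under LPS/IFN-gamma, against 21.1, 23.3 and 22.7 CPM in medium. In the WT clones its level was 25.8, 31.5 and 15.4 CPM under LPS/IFN-gamma, against 30.6, 23.3 and 19.6 CPM in medium. The conditions overlapped in both genotypes, and the log2 fold changes were -0.30 ± 0.32 in KO clones and -0.02 ± 0.31 in WT clones. For Pfkfb4 they were -0.01 ± 0.14 and 0.04 ± 0.14.

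Of 5 genes for the fate of pyruvate, 2 rose and 1 fell in each genotype. Over all genes 26.7% rose and 27.6% fell in KO clones, and 23.8% and 23.6% in WT clones. With library totals alone 1 was higher and 2 were lower in KO clones, against 14.7% and 45.1% of all genes. In WT clones 1 was then higher and 3 were lower, against 13% and 42.8%. Slc16a3 encodes MCT4, the transporter through which glycolytic cells export lactate. It had 393, 377 and 494 CPM in KO clones under LPS/IFN-gamma, against 162, 152 and 161 CPM in medium. WT clones had 321, 543 and 289 CPM under LPS/IFN-gamma, against 212, 173 and 224 CPM in medium. The conditions did not overlap in either genotype, and the log2 fold change was 1.41 ± 0.22 in KO clones and 0.92 ± 0.22 in WT clones (adjusted p of 0.00031 and 0.0051, edgeR). Slc16a1, which encodes MCT1, another carrier of lactate, did not pass the test, with -0.20 ± 0.15 in KO clones and -0.29 ± 0.15 in WT clones. With clone as a replicate block it was called lower in WT clones, at -0.27 with an adjusted p of 0.050 in edgeR, just under the threshold. MCT4 transcripts made up 47.1% ± 6.59 of the 2 transporters' summed CPM per kb in KO clones under LPS/IFN-gamma and 22.6% ± 0.507 in medium. In WT clones the shares were 49.1% ± 9.46 under LPS/IFN-gamma and 30.5% ± 1.81 in medium (SD, n = 3 each). The sum itself was 206 ± 3.34 CPM per kb in KO clones under LPS/IFN-gamma and 162 ± 6.08 in medium. For WT clones it was 177 ± 28.0 under LPS/IFN-gamma and 155 ± 28.4 in medium.

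Pdk1 (chr2:71873224-71903858, plus strand) encodes a kinase that switches off pyruvate dehydrogenase, and it is a known HIF-1 target. It fell to 44.5, 43.9 and 46.5 CPM in KO clones under LPS/IFN-gamma, against 131, 123 and 104 CPM in medium. WT clones fell to 58.6, 63.6 and 44.3 CPM under LPS/IFN-gamma, against 135, 101 and 132 CPM in medium. All stimulated libraries lay below all unstimulated ones. The log2 fold change was -1.41 ± 0.16 in KO clones and -1.14 ± 0.15 in WT clones (adjusted p of 3.2e-05 and 0.00016, edgeR). Pdha1, a subunit of pyruvate dehydrogenase itself, stood at 0.05 ± 0.14 and -0.04 ± 0.14.

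Ldha, the lactate dehydrogenase subunit favoured in glycolytic cells, had 1894, 1825 and 1683 CPM in KO clones under LPS/IFN-gamma, against 1273, 1248 and 1131 CPM in medium. For WT clones the levels were 1244, 1363 and 1705 CPM under LPS/IFN-gamma, against 962, 760.2 and 1324 CPM in medium. WT clones overlapped between conditions and KO clones did not. Its log2 fold change was 0.56 ± 0.19 in KO clones and 0.50 ± 0.19 in WT clones, close to the threshold (adjusted p of 0.025 and 0.047, edgeR). The KO call was lost without KO 1A (adjusted p = 0.12 in edgeR), KO 1B (0.11) or KO 2 (0.10). The WT call was lost without WT 1 (adjusted p = 0.088 in edgeR), WT 2 (0.17), KO 1A (0.089), KO 1B (0.090) or KO 2 (0.073).

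Of the 6 pentose phosphate enzymes, 1 rose and 2 fell in KO clones, against 26.7% and 27.6% of all genes. None was called in WT clones, where 23.8% of all genes rose and 23.6% fell. With clone as a replicate block Pgls was called lower in WT clones too. Their median log2 fold changes were -0.00 in KO clones and 0.00 in WT clones, beside -0.01 over all genes. With library totals alone none rose, against 14.7% of all genes in KO clones and 13% in WT clones. Then 4 fell in KO clones and 5 in WT clones, against 45.1% and 42.8% of all genes. G6pdx, the glucose 6-phosphate dehydrogenase that opens the oxidative branch, had 384, 365 and 418 CPM in KO clones under LPS/IFN-gamma, against 317, 350.0 and 349 CPM in medium. In WT clones it had 408, 388 and 395 CPM under LPS/IFN-gamma, against 366, 340.3 and 390.3 CPM in medium. Its log2 fold changes of 0.20 ± 0.09 and 0.12 ± 0.09 missed the threshold (adjusted p of 0.087 and 0.32, edgeR).

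Pgls, the lactonase of the second step, had 76.7, 75.0 and 72.7 CPM in KO clones under LPS/IFN-gamma, against 94.0, 88.8 and 103 CPM in medium. WT clones had 63.3, 77.5 and 86.8 CPM under LPS/IFN-gamma, against 85.3, 89.4 and 101 CPM in medium. The conditions overlapped in WT clones alone, and the log2 fold changes were -0.35 ± 0.12 in KO clones (adjusted p = 0.029, edgeR) and -0.28 ± 0.12 in WT clones (adjusted p = 0.077, edgeR). Each WT clone had less Pgls under LPS/IFN-gamma than in medium, and with clone as a block the adjusted p in WT clones was 0.019 in edgeR. Tkt, the transketolase of the non-oxidative branch, had 485, 475 and 409 CPM in KO clones under LPS/IFN-gamma, against 604, 643 and 554 CPM in medium. WT clones had 544, 581 and 539.9 CPM under LPS/IFN-gamma, against 570.1, 672 and 663 CPM in medium, with an overlap between conditions that KO clones did not show. Its log2 fold change was -0.40 ± 0.11 in KO clones (adjusted p = 0.01, edgeR) and -0.19 ± 0.11 in WT clones. The KO calls were lost without KO 1A (adjusted p of 0.11 for Pgls and 0.051 for Tkt, edgeR) or KO 1B (0.082 and 0.074), and that of Pgls without KO 2 (0.19).

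Pgd, the 6-phosphogluconate dehydrogenase that yields the second NADPH, had 408, 436 and 423 CPM in KO clones under LPS/IFN-gamma, against 289.7, 304 and 266 CPM in medium. WT clones had 341, 459 and 376 CPM under LPS/IFN-gamma, against 350.2, 467 and 371 CPM in medium. The lowest values of the 12 libraries were those of the KO clones in medium. The log2 fold change with stimulation was 0.56 ± 0.14 in KO clones (adjusted p = 0.0052, edgeR) and -0.02 ± 0.14 in WT clones. Rpia and Taldo1, of the non-oxidative branch, lay between -0.05 and 0.05 in both genotypes.

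Of 3 genes for oxygen sensing, Hif1a and Vhl rose in both genotypes, where 26.7% (KO clones) and 23.8% (WT clones) of all genes rose. Scaled by library totals alone, 1 was higher and 1 lower in KO clones, against 14.7% and 45.1% of all genes. In WT clones 1 was higher and none lower, against 13% and 42.8%. Hif1a had 258, 248 and 280.0 CPM in KO clones under LPS/IFN-gamma, against 168, 172 and 222 CPM in medium. WT clones had 307, 450.0 and 288 CPM under LPS/IFN-gamma, against 223, 236 and 178 CPM in medium. Neither genotype overlapped between conditions, and the log2 fold change was 0.49 ± 0.18 in KO clones and 0.71 ± 0.18 in WT clones (adjusted p of 0.041 and 0.0078, edgeR). The KO call was lost without KO 1A (adjusted p = 0.20 in edgeR), KO 1B (0.16), KO 2 (0.063) or WT 1 (0.054). Vhl had 56.7, 58.1 and 65.3 CPM in KO clones under LPS/IFN-gamma, against 31.0, 31.6 and 35.4 CPM in medium. WT clones had 55.4, 84.5 and 73.5 CPM under LPS/IFN-gamma, against 27.4, 36.6 and 31.4 CPM in medium, again with no overlap. On the log2 scale Vhl changed by 0.88 ± 0.16 in KO clones and 1.16 ± 0.16 in WT clones (adjusted p of 0.00081 and 0.00018, edgeR). Egln1, the main oxygen-dependent hydroxylase of Hif1a, had 15.2, 20.1 and 26.2 CPM in KO clones under LPS/IFN-gamma, against 26.1, 27.9 and 24.8 CPM in medium. In the WT clones its level was 19.6, 30.0 and 17.4 CPM under LPS/IFN-gamma, against 26.4, 22.1 and 25.4 CPM in medium. The conditions overlapped, and its log2 fold changes of -0.36 ± 0.22 and -0.14 ± 0.22 did not pass the test.

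Of 8 hypoxia targets, 6 rose and 2 fell in KO clones, against 26.7% and 27.6% of all genes. In WT clones 5 rose and 2 fell, against 23.8% and 23.6%. Scaled by library totals alone, 5 were higher and 2 lower in KO clones, against 14.7% and 45.1% of all genes. In WT clones 3 were then higher and 2 lower, against 13% and 42.8%. P4ha1, a collagen prolyl hydroxylase subunit, had 435, 400.3 and 501 CPM in KO clones under LPS/IFN-gamma, against 163, 181 and 201 CPM in medium. WT clones had 391, 444 and 417 CPM under LPS/IFN-gamma, against 192, 190.3 and 190.4 CPM in medium. The 4 groups kept apart by condition without overlap, and the log2 fold change was 1.29 ± 0.11 in KO clones and 1.13 ± 0.11 in WT clones (adjusted p of 6.6e-06 and 2.1e-05, edgeR). Ero1l, an oxidase of the endoplasmic reticulum, rose by 1.05 ± 0.19 in KO clones and 0.68 ± 0.19 in WT clones on the log2 scale. Its WT call was lost without WT 2 (adjusted p = 0.092 in edgeR).

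Bnip3 and Bnip3l, related receptors of mitophagy and both known HIF-1 targets, went opposite ways. Bnip3 had 56.8, 58.4 and 105 CPM in KO clones under LPS/IFN-gamma, against 16.3, 18.9 and 24.1 CPM in medium. WT clones had 42.7, 80.6 and 36.1 CPM under LPS/IFN-gamma, against 17.4, 16.7 and 17.7 CPM in medium. On the log2 scale Bnip3 changed by 1.89 ± 0.32 in KO clones and 1.62 ± 0.32 in WT clones (adjusted p of 0.00062 and 0.002, edgeR). Bnip3l fell to 15.6, 16.1 and 17.8 CPM in KO clones under LPS/IFN-gamma, against 25.5, 24.3 and 28.6 CPM in medium. In WT clones it fell to 15.1, 18.9 and 17.5 CPM under LPS/IFN-gamma, against 26.2, 30.5 and 25.8 CPM in medium. Neither gene overlapped between conditions, and the log2 fold change of Bnip3l was -0.66 ± 0.13 in KO clones and -0.68 ± 0.13 in WT clones (adjusted p = 0.0012 in each, edgeR). Mxi1, a Myc antagonist and HIF-1 target, fell to 30.8, 25.4 and 34.7 CPM in KO clones under LPS/IFN-gamma, against 66.7, 74.5 and 63.7 CPM in medium. WT clones fell to 44.2, 32.6 and 23.1 CPM under LPS/IFN-gamma, against 75.3, 64.8 and 62.5 CPM in medium. On the log2 scale Mxi1 changed by -1.17 ± 0.21 in KO clones and -1.02 ± 0.20 in WT clones (adjusted p of 0.00067 and 0.002, edgeR). Higd1a, a small mitochondrial protein gene, had 0.52 ± 0.18 in KO clones (adjusted p = 0.03, edgeR) and 0.34 ± 0.18 in WT clones. That KO call was lost without KO 1A (adjusted p = 0.054 in edgeR), KO 1B (0.095) or KO 2 (0.22).

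Between genotypes few of the 38 genes passed the test. The comparison asks which transcripts the deletion of NRE1 alters in RAW264.7 cells. In medium 1 member, Ndrg1, was lower in KO than in WT clones and none was higher, against 0.858% of all genes called lower and 0.352% called higher, 1.21% in all. At an unadjusted p below 0.05 in edgeR there were 6 members, against 14.1% of all genes. DESeq2 called 4 members lower and none higher, against 3.61% and 1.35% of its genes. Of these, 1 each belonged to glucose uptake and glycolysis, the glycolytic regulators, the pentose phosphate enzymes and the hypoxia targets. Under LPS/IFN-gamma 1 member, Pfkfb4, was lower and none was higher, against 3.51% and 1.13% of all genes, 4.64% in all. There, 8 members had an unadjusted p below 0.05 in edgeR, against 21.2% of all genes. DESeq2 called 2 higher (Vegfa and Pfkl) and 2 lower (Ndrg1 and Pfkfb4), against 3.32% and 6.8% of its genes. The median log2 fold change of the 38 genes, KO over WT, was 0.04 under LPS/IFN-gamma, beside -0.02 over all genes, and -0.01 in medium, beside -0.01 over all genes.

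Ndrg1 (chr15:66929318-66969640, minus strand) is induced by low oxygen and by stress in many cells. In medium it had 2.85, 1.89 and 1.97 CPM in KO clones 1A, 1B and 2, against 15.4, 36.9 and 17.3 CPM in WT clones 1, 2 and 3. Under LPS/IFN-gamma it had 17.9, 18.1 and 56.1 CPM in KO clones, against 116, 188 and 63.7 CPM in WT clones. KO clones lay below WT clones in both conditions without overlap. The log2 fold change, KO over WT, was -3.37 ± 0.63 in medium (adjusted p = 0.033, edgeR) and -2.00 ± 0.54 under LPS/IFN-gamma, where it missed the threshold (adjusted p = 0.067, edgeR). It still rose with stimulation in both genotypes, by 3.77 ± 0.64 in KO clones and 2.40 ± 0.55 in WT clones on the log2 scale. The call in medium was lost without WT 1 (adjusted p = 0.057 in edgeR), WT 2 (0.067), KO 1A (0.21), KO 1B (0.21) or KO 2 (0.058), and with 1A and 1B summed (0.20). Under LPS/IFN-gamma it was called without WT 3 (adjusted p = 0.039 in edgeR) or KO 2 (0.045).

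Pfkfb4 (chr9:108991778-109032228, plus strand) had 16.0, 15.8 and 19.1 CPM in KO clones under LPS/IFN-gamma, against 24.4, 26.5 and 26.3 CPM in WT clones. In medium it had 15.6, 15.3 and 20.4 CPM in KO clones, against 23.3, 27.8 and 24.1 CPM in WT clones. The genotypes did not overlap in either condition. The log2 fold change, KO over WT, was -0.60 ± 0.14 under LPS/IFN-gamma (adjusted p = 0.039, edgeR) and -0.55 ± 0.14 in medium (adjusted p = 0.091, edgeR). The call was lost without WT 1 (adjusted p = 0.068 in edgeR), WT 2 (0.077), WT 3 (0.068), KO 1A (0.25) or KO 1B (0.20), with 1A and 1B summed (0.22) and in a fit to the stimulated libraries alone (0.10).

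In medium 6 members lay below WT clones in every KO clone, namely Slc2a1, Aldoa, Pfkfb4, Slc16a3, Pgd and Ndrg1, against 11.4% of all genes. None lay above, against 9.5% of all genes. For Slc2a1 the log2 fold change was -0.67 ± 0.22 (adjusted p = 0.18, edgeR) and for Pgd it was -0.47 ± 0.14 (adjusted p = 0.14, edgeR). DESeq2 called 1 gene of glucose uptake and glycolysis and 1 pentose phosphate enzyme lower in medium. Under LPS/IFN-gamma 4 members lay above (Pfkl, Aldoa, Slc16a1 and Vegfa) and 4 below (Pfkfb4, Tkt, Hif1a and Ndrg1), against 11.3% and 12.7% of all genes. The summed macrophage markers overlapped between genotypes in each condition, as given above, but several single markers did not. Under LPS/IFN-gamma 5 of the 10 (Adgre1, Csf1r, Cd68, Spi1 and Fcgr1) were lower in every KO clone than in any WT clone, and Mertk was higher. In medium 4 of the 10 (Adgre1, Itgam, Spi1 and Fcgr1) were lower and none was higher. Adgre1 had 50.3 to 75.5 CPM in KO clones and 143 to 506 CPM in WT clones under LPS/IFN-gamma, and 12.4 to 25.4 CPM in KO clones and 55.2 to 213 CPM in WT clones in medium. Csf1r had 303 to 354 CPM in KO clones and 387 to 749 CPM in WT clones under LPS/IFN-gamma. The part of such differences between clones in these results was not tested.

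**Figure D5:**
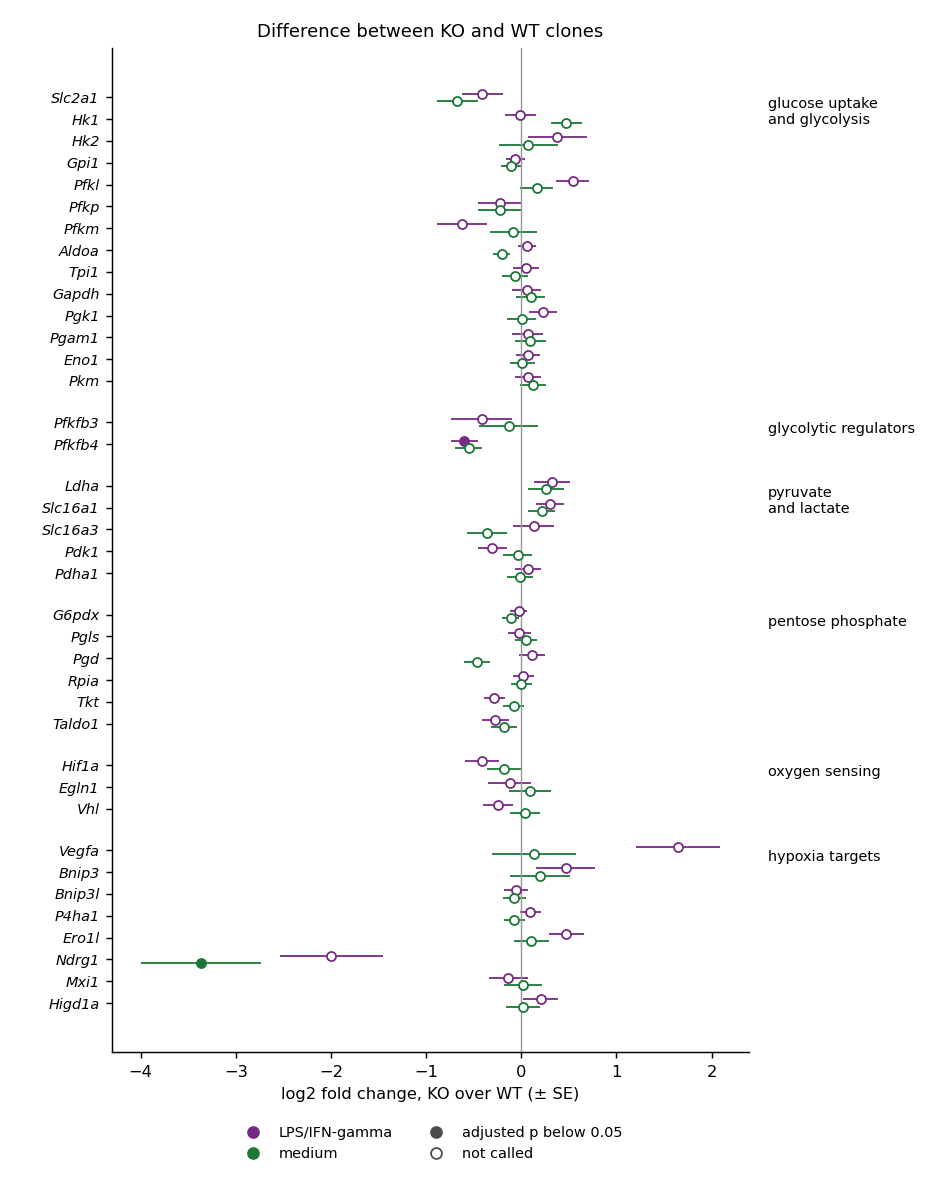
Log2 fold change of KO over WT clones (x axis) for each of the 38 genes, ordered by role, under LPS/IFN-gamma and in medium, with bars of 1 SE from edgeR. Most points lie near 0, Ndrg1 lies at -3.37 in medium, and Vegfa at 1.65 under LPS/IFN-gamma.

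Vegfa (chr17:46016993-46032369, minus strand) encodes the growth factor VEGF-A, a classical target of HIF-1. It had 78.5, 68.3 and 185 CPM in KO clones under LPS/IFN-gamma, against 14.6, 13.3 and 23.4 CPM in medium. WT clones had 50.1, 36.5 and 19.2 CPM under LPS/IFN-gamma, against 19.1, 15.1 and 12.4 CPM in medium. Every stimulated KO library lay above every stimulated WT library, and in medium the genotypes overlapped. Its log2 fold change with stimulation was 2.70 ± 0.46 in KO clones (adjusted p = 0.00066, edgeR) and 1.19 ± 0.44 in WT clones (adjusted p = 0.048, edgeR). KO over WT it was 1.65 ± 0.44 under LPS/IFN-gamma (adjusted p = 0.063, edgeR) and 0.14 ± 0.44 in medium. The WT call was lost without WT 1 (adjusted p = 0.16 in edgeR), WT 2 (0.18), WT 3 (0.059), KO 1A (0.071) or KO 1B (0.053).

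The interaction, which sets the response of KO clones against that of WT clones, called no member, and 0% of all genes. At an unadjusted p below 0.05 in edgeR there were 2 members, Vegfa and Pgd, against 5% of all genes. DESeq2 called none, and the fit with clone as a replicate block called Vegfa, against 0.164% of all genes called higher and as many lower. For Vegfa the response differed by 1.51 ± 0.62 on the log2 scale (adjusted p = 0.95, edgeR), and by 1.49 with clone as a block, where the adjusted p was 0.050, just under the threshold. For Pgd it differed by 0.58 ± 0.19 (adjusted p = 0.78, edgeR; 0.065 with the block).

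Of 101 further genes of these pathways, 75 were in the table and 74 were tested. In KO clones 24 rose and 15 fell, against 26.7% and 27.6% of all genes. In WT clones 19 rose and 13 fell, against 23.8% and 23.6%. The medians were 0.24 and 0.02. The block by clone gave 32 and 20 in KO clones, against 32.1% and 34.0% of all genes. For WT clones it gave 27 and 23, against 29.8% and 31.4%. Library totals alone gave 11 and 22 in KO clones, against 14.7% and 45.1% of all genes. For WT clones they gave 9 and 28, against 13% and 42.8%. The 3 with the smallest p among those that rose in WT clones were Gpd2, Jmjd6 and Bcl6. Gpd2, the mitochondrial glycerol 3-phosphate dehydrogenase, had log2 fold changes of 0.83 ± 0.15 in KO clones and 1.30 ± 0.15 in WT clones. For the oxygenase gene Jmjd6 they were 1.19 ± 0.12 and 0.99 ± 0.12. The repressor gene Bcl6 had 1.11 in KO clones and 0.87 ± 0.14 in WT clones. Among those that fell in WT clones, the 3 with the smallest p were Pygb, Prps2 and Slc2a8. Pygb, a glycogen phosphorylase, had -1.19 ± 0.12 in KO clones and -1.04 ± 0.12 in WT clones. Prps2, which makes phosphoribosyl pyrophosphate from ribose 5-phosphate, had -2.09 ± 0.18 and -1.45 ± 0.18. The transporter Slc2a8 had -2.43 ± 0.26 and -2.01 ± 0.25.

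Between genotypes, Ddit4, an inhibitor of mTORC1 that low oxygen induces, was higher in KO clones in both conditions. It had 20.8, 17.6 and 13.5 CPM in KO clones and 2.37, 1.72 and 4.18 CPM in WT clones under LPS/IFN-gamma, and 11.5, 13.0 and 10.4 CPM in KO clones and 2.75, 3.13 and 4.04 CPM in WT clones in medium. The genotypes did not overlap, and the log2 fold change, KO over WT, was 2.64 ± 0.31 under LPS/IFN-gamma (adjusted p = 0.0016, edgeR) and 1.81 ± 0.29 in medium (adjusted p = 0.015, edgeR). The call in medium was lost without WT 1 (adjusted p = 0.057 in edgeR), KO 1A (0.14) or KO 1B (0.15). Hk3 had 21.4, 32.2 and 72.3 CPM in KO clones and 278, 273 and 157 CPM in WT clones under LPS/IFN-gamma, a log2 fold change of -2.49 ± 0.60 (adjusted p = 0.044, edgeR). Plod1, a lysyl hydroxylase, had 55.8, 58.8 and 67.5 CPM in KO clones and 106, 83.9 and 101 CPM in WT clones under LPS/IFN-gamma, a log2 fold change of -0.68 ± 0.16 (adjusted p = 0.034, edgeR). Both were lower in all 3 KO clones. Their calls were lost without WT 1 (adjusted p of 0.097 for Hk3 and 0.10 for Plod1, edgeR), KO 1A (0.23 and 0.21) or KO 1B (0.22 and 0.20), that of Hk3 without WT 2 (0.11) and that of Plod1 without WT 3 (0.053).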

How the data were processed

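RNA of 12 libraries was analysed from a table of gene counts. The authors deposited whole-number read counts per Ensembl gene, and per the submitters' processing notes the build was mm10 (GRCm38) and DESeq2 was named without its role. Not given in the sources used here are the aligner, the counter and the use of strand. Names and positions came from GENCODE release M21 of that build, which named 12305 of 12483 genes. No row lacked a gene ID, and 0 columns were of other series. Total counts ran from 10624591 to 14388590, and the mitochondrial share from 1.24% to 2.53%.

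In R 4.3.3, edgeR 4.0.16 (filterByExpr, TMM, robust quasi-likelihood fit, 1 mean per group, 8 residual degrees of freedom) tested 12231 genes and left out 252. The coefficient of variation between clones was 23.6%. SE is the log2 fold change divided by the root of its quasi-likelihood F. The steps were tested on simulated data. The simulation held no differences between clones, and no recovery of changes was required for the interaction. The labels give each clone a library in both conditions, which pairs the libraries. The 2 libraries of a clone deviated together from the group means, with correlations of 0.30, 0.27 and 0.49 for KO 1A, 1B and 2. For WT 1, 2 and 3 they were 0.64, 0.70 and 0.62. Between KO 1A in medium and 1B under LPS/IFN-gamma the correlation was 0.25, and between 1B in medium and 1A under LPS/IFN-gamma 0.17. It was negative for every other pair of different clones of a genotype. Clone as a block (4 residual degrees of freedom, coefficient of variation 11.7%) was an alternative, as were RLE factors, library totals, no filter, DESeq2 1.42.0, a fit to the groups compared, KO 1A and 1B summed, and leaving out each clone. Dropping the members with 40% or more shared 50-base windows, and lengths from all annotated exons, were chosen after seeing the data.

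The members and lists were chosen with earlier results of these data known. Values in every library are given for members called between genotypes or in the interaction and for the 3 members of each role with the smallest p in WT clones. Of other pathway genes, 3 in each direction and those called between genotypes are named. Library values of Pfkm, Pgd, Vegfa and Bnip3, and the transporter families, were chosen after their values were seen.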

Additional observations from a re-analysis of the deposited data

Results flagged for a closer look

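The response of Vegfa to LPS/IFN-gamma differed between genotypes in the fit with clone as a block, by 1.487 on the log2 scale, KO over WT, with an adjusted p (edgeR, over all genes) of 0.050, just under the threshold. Its level rose in all 3 KO clones and in all 3 WT clones. In the fit without the block the difference was 1.51 ± 0.62 (SE) with an adjusted p of 0.95 in edgeR. KO 2 had the highest level of the 12 libraries, 185 CPM under LPS/IFN-gamma, and the other KO clones had 78.5 and 68.3 CPM, against 50.1, 36.5 and 19.2 CPM in WT clones.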

How the results depend on the processing

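With library totals alone, 14 members were called higher and 12 lower in KO clones, and 10 higher and 13 lower in WT clones, and the change of Aldoa in WT clones was -0.018. DESeq2 called 4 members lower in KO than in WT clones in medium, and 2 higher and 2 lower under LPS/IFN-gamma. With KO 1A and 1B summed, 0 were called between genotypes in either direction and condition, and a fit to the stimulated libraries alone also called 0 lower. Single-gene results, those of the response to stimulation among them, were also followed through each setting. With 1A and 1B summed, 48 of these stayed the same and 12 were weaker. The block by clone added Vegfa, 1 member higher in the interaction, and called 21 higher (Tpi1 added) and 6 lower in KO clones and 17 higher and 6 lower (Pgls and Slc16a1 added) in WT clones. It changed no other member's call. The block could not be fitted to comparisons between genotypes, since each clone has 1 genotype. Leaving out each clone in turn gave 17 to 21 higher and 4 to 6 lower in KO clones and 13 to 18 higher and 4 to 5 lower in WT clones. KO against WT it gave 0 to 1 lower in medium, and 0 to 1 higher (Pfkl without WT 2, adjusted p = 0.016 in edgeR) and 0 to 2 lower under LPS/IFN-gamma. The 5 members that share sequence were all called higher in both genotypes, and without them 15 and 12 members rose in KO and WT clones. Lengths from all annotated exons lowered the Pfkp shares to 56.5% and 25.8% in KO clones and 66.6% and 30.5% in WT clones, each pair under LPS/IFN-gamma and in medium. The cause of these shifts was not tested. RLE factors and no filter on low counts kept every count within 1.5 times. With 3 clones a group the spread between clones limits what can be called, and the relation of KO 1A to 1B is not stated in the labels.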
